A study of Rattus norvegicus with 18 samples.

Results

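Of the genes of cytokine signalling, 6 were followed on arrays of cultured rat cortical astrocytes, the star-shaped support cells of the brain: Il1rn, Ifng, Cd40lg, Il4r, Jak2 and Stat3. Every probe set whose symbol in the platform annotation was 1 of these 6 and no other was taken, which gave 11 of the 1322 probe sets on the array, for 6 of 720 genes that had a probe set of their own. A probe set is a group of short oligonucleotides that together give 1 signal. Whether each probe set matches only 1 transcript was not checked. Jak2 and Stat3 had 3 probe sets each, Ifng had 2, and Il1rn, Cd40lg and Il4r had 1 each. The rule itself uses symbols and no signal, but the 6 genes were proposed with earlier results of these data known. Of the 18 samples, 12 came from rat (Rattus norvegicus) cells grown on the 25-35 fragment of the beta-amyloid peptide fixed to the culture surface, for 12 hours (12hr), 1 day (1d), 3 days (3d) or 5 days (5d), with 3 samples at each time. This fragment is a short stretch of the amyloid peptide that is widely used in culture as an aggregating form. The 6 Control samples are of cells on a laminin and nitrocellulose surface that met no peptide, for a time that is not labelled. Cerebral cortex is the labelled source of Controls 1 and 2, and cortical type-I astrocytes that of the other 16 samples. Total RNA was measured on 1 array per sample. The labels give no strain or age of the rats and do not say that the samples of a group were separate cultures, so a p-value here reflects only how these samples scatter, and that scatter may be technical.

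In Jak-Stat signalling a cytokine binds its receptor, Janus kinases held by the receptor, such as Jak2, phosphorylate it, and a Stat protein docks there, is phosphorylated and moves to the nucleus as a transcription factor. Interferon gamma, encoded by Ifng, acts through Jak1 and Jak2, and the interleukin 4 receptor chain Il4r acts through Janus kinases and Stat6, while Stat3 relays interleukin 6 family cytokines and is known in astrocytes for its part in their reaction to injury. Il1rn and Cd40lg stand beside this pathway, since the interleukin 1 receptor antagonist blocks the interleukin 1 receptor and CD40 ligand binds a receptor of the tumour necrosis factor family, and both receptors are known to feed the NF-kB pathway.

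All 6 genes matched the RefSeq gene table of the rat build GRCr8 by gene identifier. Il1rn (gene 60582) lies on chromosome 3 at 27509836 to 27525738, Ifng (gene 25712) on chromosome 7 at 55789180 to 55793216, and Cd40lg (gene 84349) on chromosome X at 140164341 to 140176057. Il4r (gene 25084) lies on chromosome 1 at 189545739 to 189570639 and Jak2 (gene 24514) on the same chromosome at 236408905 to 236468769. Stat3 (gene 25125) lies on chromosome 10 at 86311528 to 86363513. The files do not place the probe sets on exons or untranslated regions. RefSeq promoter windows of 300 bases, 250 before and 50 after a transcript start, were found for 5 of the 6 genes, all but Cd40lg. The 4 printed here belong to Jak2 and Il4r, which had probe sets above every control at 12 hours, and to Ifng and Il1rn, each with a probe set whose signals at 5 days were below every control. They are given 5′ to 3′, and capitals mark the letters TATAAA on either strand.

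Jak2: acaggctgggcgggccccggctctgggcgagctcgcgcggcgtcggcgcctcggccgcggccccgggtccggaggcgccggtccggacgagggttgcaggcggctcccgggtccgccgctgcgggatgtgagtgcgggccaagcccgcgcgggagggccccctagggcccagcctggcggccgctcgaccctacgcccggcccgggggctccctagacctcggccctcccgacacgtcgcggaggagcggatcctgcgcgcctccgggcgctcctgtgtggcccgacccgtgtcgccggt

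Il4r: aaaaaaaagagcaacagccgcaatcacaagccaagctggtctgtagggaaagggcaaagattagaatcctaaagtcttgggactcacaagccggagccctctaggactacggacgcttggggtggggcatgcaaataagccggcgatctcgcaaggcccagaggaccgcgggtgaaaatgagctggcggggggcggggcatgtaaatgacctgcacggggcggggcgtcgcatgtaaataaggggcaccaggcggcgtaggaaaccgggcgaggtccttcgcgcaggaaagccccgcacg

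Ifng: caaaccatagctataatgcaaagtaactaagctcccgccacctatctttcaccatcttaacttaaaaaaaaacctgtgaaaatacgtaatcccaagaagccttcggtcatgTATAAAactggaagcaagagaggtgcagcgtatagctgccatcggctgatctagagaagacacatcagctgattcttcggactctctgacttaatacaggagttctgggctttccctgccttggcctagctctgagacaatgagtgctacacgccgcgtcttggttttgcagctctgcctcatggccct

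Il1rn: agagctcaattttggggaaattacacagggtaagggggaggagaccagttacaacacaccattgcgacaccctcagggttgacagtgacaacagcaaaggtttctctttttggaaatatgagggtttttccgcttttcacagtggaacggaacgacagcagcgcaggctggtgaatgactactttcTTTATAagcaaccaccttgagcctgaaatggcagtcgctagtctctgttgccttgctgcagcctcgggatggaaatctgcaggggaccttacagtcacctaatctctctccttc

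The Jak2 window is chr1:236408655-236408954, the Il4r window chr1:189545525-189545824, the Ifng window chr7:55788930-55789229 and the Il1rn window chr3:27520072-27520371, all on the plus strand. The Il1rn and Il4r windows each start a transcript inside the span of the gene, as does the Stat3 window, which is not printed. G and C made up 80.3% of the Jak2 window and 59.7% of the Il4r window, against 46.7% for Ifng and 49% for Il1rn and a median of 51.7% over all 33469 windows. The Stat3 window, on the minus strand, had 62.3%. TATAAA was found 139 bases before the start in Ifng and, on the other strand, 64 bases before it in Il1rn, and 14.2% of all windows hold it. The Stat-type spacing TTCNNNGAA, searched on both strands, was in none of the 5 windows, and 8.87% of all windows hold it. The same letters with 1 more base between their ends were also in none, and 7.28% of all windows hold them. These are matches of letters only.

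The deposited values are linear signals, 1 per probe set and array, with nearly the same trimmed mean on every array. How they were scaled before deposit is not stated in the sources used here. With the top 2% and the bottom 2% of values set aside, the 18 arrays had mean signals of 502.067 to 502.632. Of the 1263 probe sets that are not array controls, 1027 had a signal above 44.9 on at least 3 arrays and were tested, and 10 of the 11 probe sets described here were among them. The exception, 1 of the 2 for Ifng, exceeded that signal on 1 of 18 arrays. Arrays did not fall into groups by label alone. Clustering placed Controls 1 and 2, the 3 arrays at 12 hours, 1d array 3 and 3d array 3 in 1 cluster of 7 (cluster 1) and the other 11 arrays in another (cluster 2). These clusters were defined from the values and are not groups of the study, and they took 47.9% of the sum of squares, against 39.6% for the 5 groups. Control 1 correlated with the 3 arrays at 12 hours at 0.966 to 0.970 and with the other 5 controls at 0.793 to 0.923. For the chemokine Ccl5 the signals were 1250.5 to 1480 at 12 hours and 1496.3 on the array labelled Control 1, while the other 5 controls had 11.4 to 24.2. Results against Control are therefore given with and without the controls that stand apart, and with the cluster as a term of the fit.

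At 12 hours on the peptide Cd40lg fell by 1.21 in log2 units, to signals too dim for an exact fold, and Jak2 rose 2.44-fold on 1 of its 3 probe sets, the only 2 of the 10 tested probe sets past the limma threshold against Control at any time. Neither passed once the array clusters, 1 of which held all 12hr arrays, entered the fit as a block. Il4r and a further Jak2 probe set also had all 3 signals at 12 hours above all 6 controls, without passing. Il1rn had its highest signals at 1 day, and the dim Ifng signal was lowest at 5 days, and neither passed against Control. The bright Stat3 probe sets spread as widely among the controls as between the groups. Each array measured the RNA of a whole culture, so a change in the level per cell and a change in the share of a cell type cannot be told apart.

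**Figure D1:**
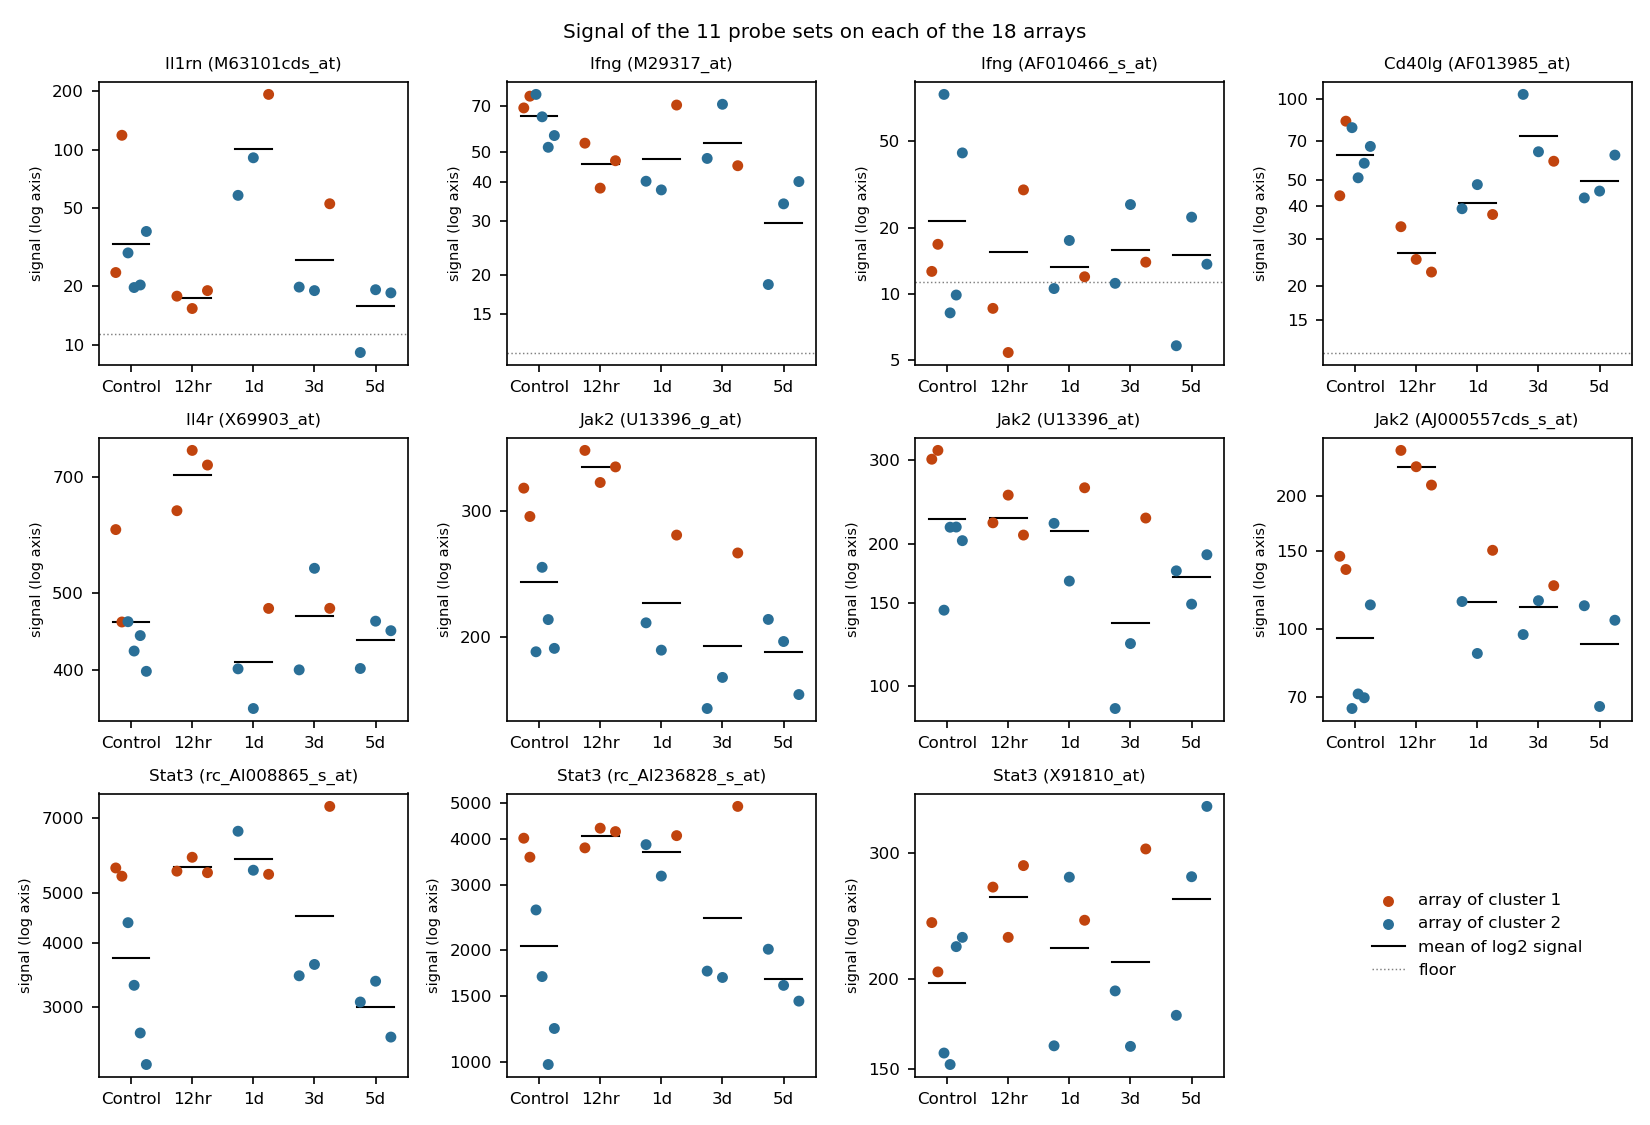
Signal of each of the 11 probe sets (log axis, arbitrary units) on each of the 18 arrays by group, with 1 point per array, a bar at the mean of the log2 signals after flooring, and colour for the array cluster. At 12 hours the 3 Cd40lg signals (22.6 to 33.4) lie below all 6 controls, and the 3 signals of Jak2 AJ000557cds_s_at (211.2 to 253) lie above all of them.

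Il1rn, the interleukin 1 receptor antagonist, was measured by M63101cds_at. Its lowest, median and highest signals on the 6 Control arrays were 19.6, 26.45 and 118.3. Signals at 12hr were 17.7, 15.3 and 18.9, and the 1d arrays 58.2, 90.7 and 191.7. The 3d arrays had 19.7, 18.9 and 52.7, and the 5d arrays 9.1, 19.1 and 18.4. The 1d arrays stood above 5 of the 6 controls, with Control 2, at 118.3, between them. The 12hr and 5d arrays all lay below the lowest control, and 1 5d array was under the floor of 11.3. The 3 arrays at 1d let Il1rn into the fit, since only Control 2 and 3d array 3 exceeded 44.9 beside them, so its tests involving 1d follow a selection by the group where it is high and are given as descriptions. On the log2 scale 1d minus Control was 1.62 ± 0.53 (SE, 3 and 6 arrays, limma adjusted p 0.317). Leaving out Control 2 gave 1.99 with a limma adjusted p of 0.0436, and leaving out Controls 1 and 2 gave 1.96 with 0.0217. With the 2 clusters as a block the difference was 1.62 (limma adjusted p 0.0321), and with 5 clusters as a block it was 0.85 with 0.864. Against Control the 12hr arrays differed by -0.93 ± 0.53 (SE, limma adjusted p 0.238), the 3d arrays by -0.28 ± 0.53 (0.999) and the 5d arrays by -1.05 ± 0.53 (0.520). Between times, 1d minus 12hr was 2.54 ± 0.61 (limma adjusted p 0.0846) and 5d minus 1d was -2.66 ± 0.61 (0.0622). Without Controls 1 and 2, whose absence changes only the shared spread of these 2 differences, they had limma adjusted p-values of 0.0181 and 0.00716. The order of the mean log2 signals was 1d, Control, 3d, 12hr and 5d, and each group overlapped its neighbour in that order. The signal exceeded 44.9 on only 5 of the 18 arrays, and with no detection calls it is not known how far the lower ones stand above background.

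Ifng, the gene of interferon gamma, a cytokine known mainly from T cells and natural killer cells, had a dim signal throughout. On M29317_at the lowest, median and highest Control signals were 51.7, 67 and 76.5. The 12hr arrays had 53.3, 38.2 and 46.8, and the 1d arrays 40.2, 37.7 and 70.7. The 3d arrays had 47.6, 71.1 and 45.1, and the 5d arrays 18.7, 34 and 40.1. The 3 signals at 5 days lay below all 6 controls, while at each earlier time at least 1 array lay among the controls. The mean signal was 30.9 ± 11.02 at 5 days and 65.7 ± 10.1 in Control (SD, 3 and 6 arrays). The log2 difference was -1.14 ± 0.27 (SE; limma p 0.000647 unadjusted and 0.206 adjusted). It was -1.07 without Controls 1 and 2, -1.06 with the 2 clusters as a block and -0.96 with 5, and no limma adjusted p of these fits was under 0.247. At 12hr, 1d and 3d the differences from Control were -0.51, -0.45 and -0.28, with limma adjusted p-values of 0.213, 0.559 and 0.999. The mean of the 4 times differed from Control by -0.60 ± 0.19 (SE, limma adjusted p 0.605). Group means ran in the order Control, 3d, 1d, 12hr and 5d, and all neighbours overlapped. The other Ifng probe set, AF010466_s_at, had Control signals of 8.2 at the lowest, 14.8 at the median and 82.1 at the highest. Its signals at the 4 times were 5.4 to 30, 10.6 to 17.6, 11.2 to 25.7 and 5.8 to 22.5, all within the range of the controls except the lowest at 12hr and 5d. It failed the filter. Tested without a filter, its 5d difference from Control was -0.51 with a limma adjusted p of 0.737.

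Cd40lg encodes CD40 ligand, a membrane protein of the tumour necrosis factor family best known from activated T helper cells, and was measured by AF013985_at. The lowest, median and highest Control signals were 43.6, 62.2 and 82.9. Those at 12hr were 33.4, 25.2 and 22.6, and the 1d arrays 39, 48 and 37.1. The 3d arrays had 104.4, 63.7 and 58.7, and the 5d arrays 42.8, 45.4 and 61.9. All 3 arrays at 12 hours lay below all controls and below all arrays of the 3 later times, and at 12 hours no signal reached the filter level of 44.9, so their distance from background is not known. Cd40lg averaged 27.1 ± 5.64 at 12 hours and 63.4 ± 15.5 in Control (SD, 3 and 6 arrays). In log2 units it fell by 1.21 ± 0.25 (SE; limma adjusted p 0.0382). The 12hr level was the low point: 3d minus 12hr was 1.45 ± 0.29 (SE, limma adjusted p 0.0208) and 5d minus 12hr 0.89 ± 0.29 (0.0460, a call lost in 10 of 14 other settings), while 1d minus 12hr was 0.62 ± 0.29 (0.325). Against Control the 1d, 3d and 5d arrays had -0.59, 0.24 and -0.32, with limma adjusted p-values of 0.389, 0.999 and 0.595. Cd40lg was also the only 1 of the 10 probe sets past the limma F-test over the 5 groups (adjusted p 0.0493). Of the 1027 tested probe sets 1.66% passed it. None of the 10 passed that test with no filter, quantile normalization, median centring or cyclic loess, or with any single 12hr array left out. The order was 3d, Control, 5d, 1d and 12hr, and among neighbours only 1d and 12hr had separate ranges. Without Control 1 the 12hr difference was -1.31 (limma adjusted p 0.00552), and without Controls 1 and 2 it was -1.23 with 0.00293. With the 2 clusters as a block it was -1.07 with a limma adjusted p of 0.0944, with 5 clusters -0.71 with 0.980, and within cluster 1, against Controls 1 and 2 alone, -1.17 with 0.347. The call was kept in 6 of the 18 fits that left out 1 array each, with differences of -1.37 to -1.09.

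Il4r encodes the alpha chain of the interleukin 4 receptor, which interleukin 13 also uses. On X69903_at the lowest, median and highest Control signals were 398.7, 451.2 and 601.7. At 12hr the arrays had 635.6, 757.2 and 725.7, and the 1d arrays 401.6, 357.9 and 478.6. The 3d arrays had 400.4, 537.7 and 478.7, and the 5d arrays 402, 461.2 and 448.6. The 3 arrays at 12 hours stood above every other array, Control 1 at 601.7 being next. The mean was 706 ± 63.1 at 12 hours and 464 ± 71.3 in Control (SD, 3 and 6 arrays). The log2 difference was 0.61 ± 0.17 (SE; limma adjusted p 0.0780). It passed with no filter (0.61, limma adjusted p 0.0351) and with median centring (0.81, 0.0498). Without Control 1 it was 0.69 (limma adjusted p 0.0117), and without Controls 1 and 2 it was 0.71 with 0.00649. With the 2 clusters as a block it was 0.45 (limma adjusted p 0.161), and cluster 1 alone gave 0.42 (0.408). At 1d, 3d and 5d the differences from Control were -0.17, 0.03 and -0.08, with limma adjusted p-values of 0.807 to 0.999. Il4r was lower at 5d than at 12hr by -0.69 ± 0.19 (SE, limma adjusted p 0.0394), and 1d minus 12hr was -0.78 ± 0.19 (0.0846). With the 2 clusters as a block, which itself sets all 12hr arrays apart from all 5d arrays, 5d minus 12hr was -0.45 (limma adjusted p 0.333). In order the groups ran 12hr, 3d, Control, 5d and 1d, and only the first step had separate ranges.

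Jak2, the receptor-bound kinase that serves interferon gamma and many growth factor and interleukin receptors, had 3 probe sets that did not agree. On AJ000557cds_s_at the lowest, median and highest Control signals were 66, 92.2 and 145.8. The 12hr arrays had 253, 232.4 and 211.2, and the 1d arrays 115.2, 87.9 and 150.4. The 3d arrays had 97, 115.7 and 125.1, and the 5d arrays 112.7, 66.7 and 104.5. The 12hr arrays lay above all 15 others. Jak2 on this probe set averaged 232 ± 20.9 at 12 hours and 100.35 ± 36.0 in Control (SD, 3 and 6 arrays), and rose by 1.28 ± 0.29 in log2 units (SE; limma adjusted p 0.0439). It was lower at 5d than at 12hr by -1.33 ± 0.33 (SE, limma adjusted p 0.0269), while 1d and 3d minus 12hr were -1.01 and -1.05 with limma adjusted p-values of 0.171 and 0.0946. At 1d, 3d and 5d it differed from Control by 0.28, 0.24 and -0.04, none past the threshold.

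The probe set Jak2 U13396_g_at had Control signals of 190.9 at the lowest, 231.05 at the median and 322.9 at the highest. The 12hr arrays had 364.5, 328.8 and 345.7, the 1d arrays 209.5, 191.9 and 277.7, the 3d arrays 159.1, 175.8 and 262.2, and the 5d arrays 211.8, 197.3 and 166.4. The 3 arrays at 12 hours again lay above all others, by a narrow margin over Control 1. The 12hr difference from Control was 0.53 ± 0.22 (SE, limma adjusted p 0.133), and 5d minus 12hr was -0.86 ± 0.25 (0.0416). Jak2 U13396_at had 144.7, 216.7 and 314.7 as the lowest, median and highest Control signals. Its 12hr arrays had 221.3, 253.2 and 208.5, its 1d arrays 220.7, 166.7 and 262.4, its 3d arrays 89.7, 123 and 226.5, and its 5d arrays 175.2, 149 and 189.5. Here the 12hr arrays lay inside the range of the controls, with a difference of 0.01 ± 0.29 (SE, limma adjusted p 0.980), and the largest difference from Control was -0.73 ± 0.29 at 3d (0.877). Without Control 1 the 12hr difference on the 3 probe sets was 1.41, 0.62 and 0.09, with limma adjusted p-values of 0.00600, 0.0494 and 0.831. With the 2 clusters as a block the first 2 had 0.86 and 0.16, with limma adjusted p-values of 0.126 and 0.541, and with 5 clusters 0.67 and 0.10. Within cluster 1 Jak2 AJ000557cds_s_at had 0.72 with a limma adjusted p of 0.285. Its call was kept in 4 of the 18 fits that left out 1 array each, with differences of 1.18 to 1.41. Those 2 probe sets were also the ones of the 10 whose ranges did not overlap between the array clusters, 125.1 to 253 in cluster 1 and 66 to 115.7 in cluster 2 for AJ000557cds_s_at. Of all tested probe sets 14.9% had ranges apart between the clusters.

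Stat3, the transcription factor that interleukin 6 type cytokines activate, was read by 2 bright probe sets and a dimmer one. On rc_AI008865_s_at the lowest, median and highest Control signals were 2312.2, 3839.7 and 5598.7. The 12hr arrays had 5518.9, 5874.6 and 5481.7, and the 1d arrays 6604.7, 5542 and 5440.8. The 3d arrays had 3446.7, 3626.9 and 7385.6, and the 5d arrays 3063, 3363.6 and 2616. The controls spanned most of the range of the exposed arrays, with Controls 1 and 2 (5598.7 and 5394.9) at the level of the 12hr and 1d arrays and Controls 4 to 6 at that of the 5d arrays. The differences from Control were 0.59 ± 0.30 (SE) at 12hr, 0.65 at 1d, 0.28 at 3d and -0.31 at 5d, with limma adjusted p-values of 0.198, 0.421, 0.999 and 0.663. On rc_AI236828_s_at they were 0.99 ± 0.42 (SE), 0.84, 0.25 and -0.29, with limma adjusted p-values of 0.148, 0.484, 0.999 and 0.770. That probe set had 3780.2, 4271.9 and 4182.3 at 12hr, 3856.6, 3171.2 and 4078.6 at 1d, 1756.3, 1688.1 and 4891.8 at 3d and 2012.3, 1607.4 and 1457.3 at 5d, against 982.5, 2133.5 and 4014 as the lowest, median and highest Control signals. As on the first probe set, 3d array 3 was far above the other 2 arrays of its group and every exposed group overlapped the controls. Without Controls 1 and 2 the 12hr differences of the bright probe sets were 0.87 and 1.43 with limma adjusted p-values of 0.0281 and 0.0124. With the 2 clusters as a block they were 0.16 and 0.26, and with 5 clusters 0.01 and 0.02. At 1d, within cluster 2, rc_AI008865_s_at had 0.98 with a limma adjusted p of 0.0388. From 12hr, the 5d arrays differed by -0.91 ± 0.34 and -1.28 ± 0.49 (SE), with limma adjusted p-values of 0.0803 and 0.0838. The third probe set, X91810_at, had 268.7, 228.7 and 287.9 at 12hr, 161.5, 277.4 and 241.6 at 1d, 192.6, 161.2 and 303.7 at 3d, 178.1, 277.8 and 348.1 at 5d, and 152.1, 213.35 and 239.8 as the lowest, median and highest Control signals. Its ranges overlapped between all groups and its differences from Control were 0.40, 0.16, 0.10 and 0.38 in order of time, none past the threshold.

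Counted over the 10 tested probe sets, 1 was higher and 1 lower at 12 hours against Control by limma, where 1.66% of all tested probe sets were called, 0.779% higher and 0.876% lower. An unadjusted limma p under 0.05 was found for 5 of the 10 and for 29.3% of all. Ranges apart from the controls were seen for 5, of which 3 were higher and 2 lower, against 15.2% of all, with 5.36% higher and 9.83% lower. At 1d none of the 10 was called and 3 had an unadjusted limma p under 0.05, against 0.292% and 11.7% of all, and none had ranges apart (1.95% of all). At 3d none was called by limma and 1 had an unadjusted p under 0.05, where 0% of all were called and 4.58% had such a p. At 5d none was called and 1 had such a p, where 0% and 9.15% of all did, and the ranges of Ifng M29317_at and Il1rn lay below the controls, against 5.36% of all probe sets with ranges apart. The median log2 difference of the 10 was 0.47 at 12hr, 0.04 at 1d, 0.06 at 3d and -0.32 at 5d, and over all 1027 it was -0.18, -0.05, 0.02 and -0.14. These 4 comparisons share their controls. For the mean of the 4 times none of the 10 was called by limma, with 3 unadjusted p-values under 0.05, where 0% and 7.5% of all had them. From 12hr, 4 of the 10 differed at 5d by limma (Cd40lg higher, Il4r and 2 Jak2 probe sets lower), against 16.5% of all, 8.96% higher and 7.5% lower. An unadjusted limma p under 0.05 was found for 6 of the 10 and 31.9% of all, and 7 had ranges apart, against 53.7% of all. At 3d only Cd40lg did, which was higher, where 2.24% of all were called, 1.46% higher and 0.779% lower. There 5 of the 10 and 21.6% of all had an unadjusted limma p under 0.05, and 4 of the 10 and 36% of all had ranges apart. At 1d none did, with 5 unadjusted p-values under 0.05 among the 10 and 14.6% of all, and 5 of the 10 and 33.9% of all had ranges apart. None of the 10 was called for 3d minus 1d, 5d minus 1d or 5d minus 3d, with 2, 4 and 1 unadjusted limma p-values under 0.05, where 0.0974%, 0% and 0.292% of all were called and 8.37%, 18.3% and 11.5% had such a p.

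**Figure D2:**
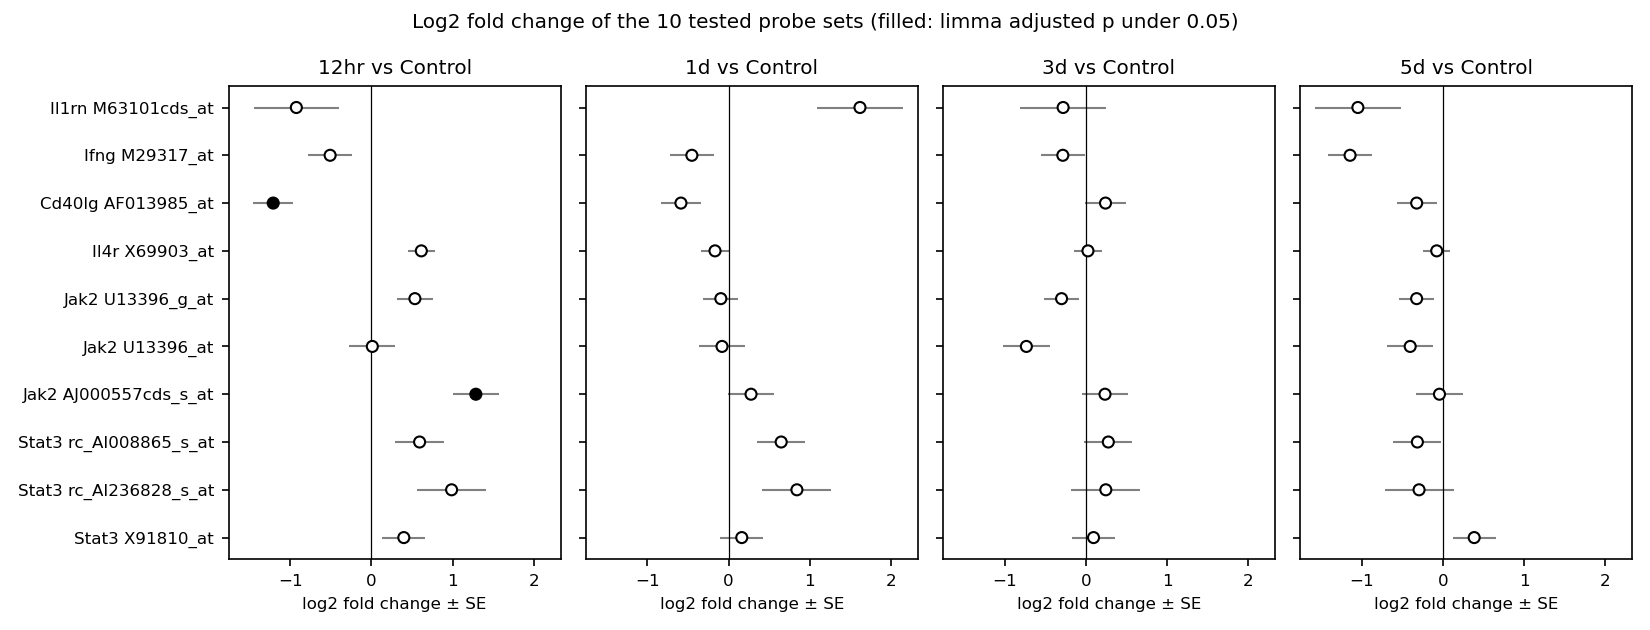
Log2 difference from Control with its SE for the 10 tested probe sets at 12hr, 1d, 3d and 5d, filled where the limma adjusted p is under 0.05. Only Cd40lg (-1.21) and Jak2 AJ000557cds_s_at (1.28), both at 12hr, are filled.

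The number of the 10 called at 12 hours depended on which arrays entered the fit. All 18 arrays gave 2, leaving out Control 1 gave 4, and leaving out Controls 1 and 2 gave 6, where 17, 211 and 321 of all 1027 probe sets were called. Leaving out any of 12 other arrays, Controls 3 to 6 and the 3 arrays at 12 hours among them, gave 0. The 2 clusters or 5 clusters as a block gave 0, where 3 and 0 of all were called. With 5 clusters the 12hr arrays are compared with Control 1 alone. Since the values themselves formed the clusters, the blocked fits may give p-values that are too small. All 3 arrays at 12 hours are in cluster 1, so a block may also take up part of a 12hr difference and give p-values that are too large. For 5d against 12hr the 4 calls also ended with the 2 clusters as a block. There Jak2 AJ000557cds_s_at had -0.70, Il4r -0.45, Jak2 U13396_g_at -0.30 and Cd40lg 0.68, with limma adjusted p-values of 0.324 to 0.498. All 12hr arrays were in cluster 1 and all 5d arrays in cluster 2, so for these 2 groups block and contrast are the same split. With that block 0 of all 1027 probe sets were called, so the loss of the 4 calls cannot show whether they hold. The 3d minus 12hr difference of Cd40lg was 1.32 with the 2 clusters (limma adjusted p 0.0394) and 0.53 with 5 (0.966). For Cd40lg, Jak2 AJ000557cds_s_at and Il4r the sign of the 12hr difference was the same in the 5 fits of 12hr against Control named here.

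**Figure D3:**
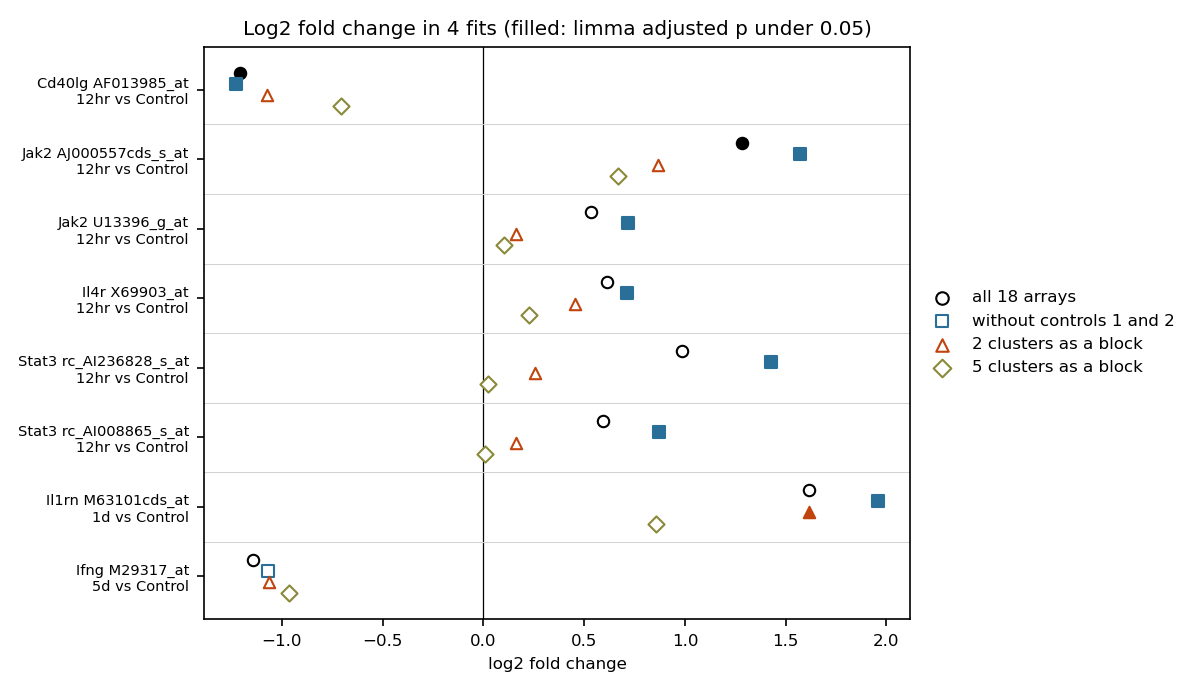
Log2 difference of 8 probe sets and comparisons in 4 fits: all 18 arrays, without Controls 1 and 2, with 2 clusters as a block and with 5 clusters as a block, filled where the limma adjusted p is under 0.05. At 12hr the difference of Stat3 rc_AI236828_s_at is 1.43 without Controls 1 and 2 and 0.02 with 5 clusters, while that of Cd40lg is -1.23 and -0.71.

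The probe sets of the 6 genes did not vary as 1 group across arrays. The correlations that follow are over log2 signals of arrays that share culture and clusters, and are given within cluster 1 (7 arrays) and cluster 2 (11 arrays) as descriptions. The 2 bright Stat3 probe sets followed each other (r = 0.857 and 0.935), but Stat3 X91810_at followed rc_AI008865_s_at in cluster 1 (0.571) and not in cluster 2 (-0.311). Jak2 U13396_g_at went with AJ000557cds_s_at in cluster 1 (0.863) and not in cluster 2 (-0.358), and with U13396_at in cluster 2 (0.703) and not in cluster 1 (-0.285). Il4r went with Jak2 AJ000557cds_s_at at 0.840 in cluster 1 and -0.130 in cluster 2. Il1rn and Il4r ran opposite to each other in both, at -0.892 and -0.524.

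For the brightest probe set of each gene, the most similar probe sets of other genes over all 18 arrays were named by Pearson's r. Jak2 U13396_g_at was nearest to Icam1, an adhesion molecule, at 0.947, and to both probe sets of Irf1, an interferon-induced transcription factor, at 0.946 and 0.930, and farthest from Sod3 at -0.940. Within cluster 1 and cluster 2 Icam1 had 0.885 and 0.639, and Irf1 M34253_g_at had 0.902 and 0.668. Il4r was nearest to Camk2d (0.877), Ccl5 (0.874) and Stx3 (0.868), and the Ccl5 value was 0.911 in cluster 1 and -0.329 in cluster 2. Cd40lg was nearest to Mapk8ip2, a scaffold of stress kinases, at 0.865 (0.926 in cluster 1 and 0.842 in cluster 2), Agrn at 0.815 and Cit at 0.795, and farthest from Acsl3 at -0.842. Stat3 rc_AI008865_s_at was nearest to Rab1b (0.934, with 0.590 in cluster 1 and 0.918 in cluster 2), Grk2 (0.916) and Ncs1 (0.906), and farthest from Nlgn1 (-0.931). Within cluster 1 Grk2, Ncs1 and Nlgn1 had 0.212, -0.245 and -0.102, and within cluster 2 they had 0.886, 0.882 and -0.898. Il1rn was nearest to Clcn5 (0.768), P2rx1 (0.752) and Nptx2 (0.719), and Ifng M29317_at to Casp6 (0.718), Grin2c (0.709) and Abcc9 (0.704). The value of Nptx2 with Il1rn was 0.960 in cluster 1 and 0.023 in cluster 2.

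**Figure D4:**
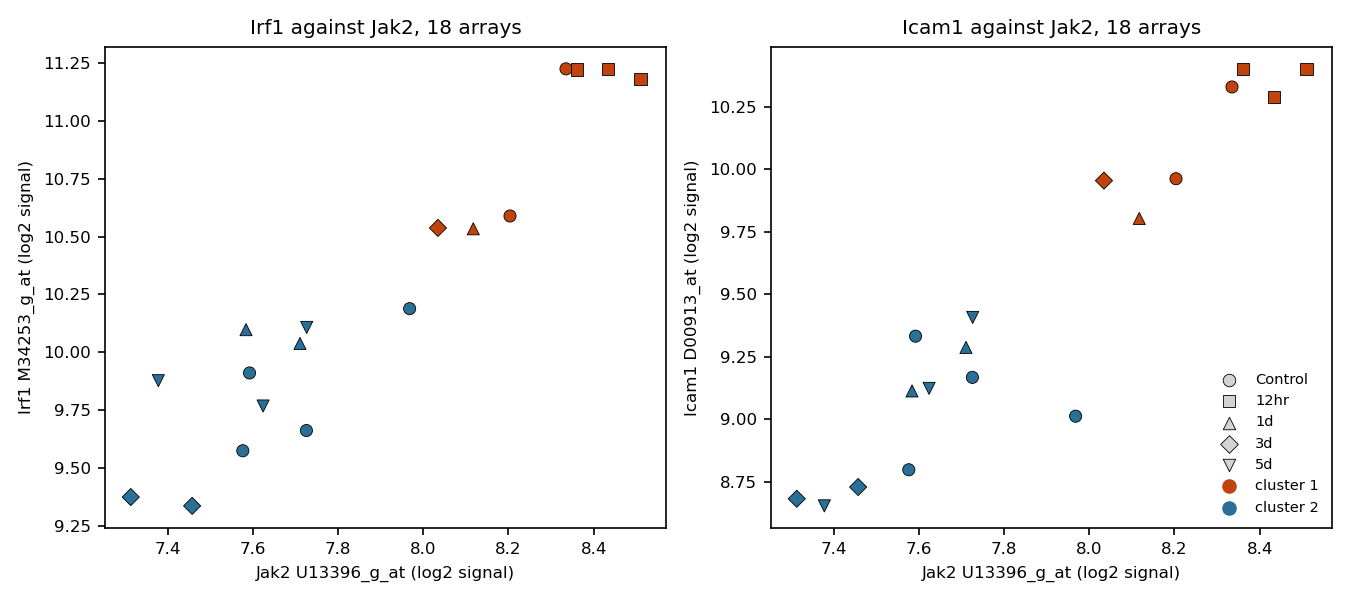
Log2 signal of Irf1 M34253_g_at (left) and Icam1 D00913_at (right) against that of Jak2 U13396_g_at on 18 arrays, with marker shape for the group and colour for the array cluster. The 7 arrays of cluster 1 lie to the right of the other 11 on the Jak2 axis, with the array labelled Control 1 beside the 3 arrays at 12hr.

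Other genes of the pathway were taken from lists and not for how they moved. Against Control, limma called 1.66% of all 1027 tested probe sets at 12hr, 0.292% at 1d and 0% at 3d and 5d. Of 34 listed Jak-Stat genes and regulators 7 were matched to probe sets, and 4 besides Jak2 and Stat3 were tested (Jak1, Socs2, Socs3 and Pias3), of which none was called against Control at any time. Jak1, the partner kinase of Jak2 at the interferon gamma receptor, had signals of 940.6, 1009.9 and 1011.4 at 12hr and a lowest, median and highest Control signal of 301, 419.1 and 830.6, with a log2 difference of 1.05 ± 0.33 (SE, limma adjusted p 0.103). Socs3, the feedback inhibitor that Stat3 induces, had 0.04 ± 0.70 at 12hr (limma adjusted p 0.976) and -1.003 at 1d (0.638), and Socs2 had -0.63 at 12hr (0.396). None of the 23 probe sets of 16 other cytokine genes was called at any time, the smallest p-values belonging to Mif (0.51, limma adjusted p 0.101), Tgfb1 (1.28, 0.111) and Il18 (1.35, 0.115), all at 12hr. None of the 15 probe sets of 12 other cytokine receptors was called either, and Fas had -0.95 (limma adjusted p 0.113) at 12hr and Tgfbr1 1.08 (0.385) at 1d. Il1b, whose product Il1rn opposes, had 31.6 to 54.2 at 12hr and 9.7 to 81.3 in Control on M98820_g_at. Il4, whose receptor Il4r is, had 6.4 to 14.6 at 12hr and 7.3 to 14.2 in Control, and was not tested.

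Known target genes of the pathways were counted in the same way at 12 hours. Of all 1027 tested probe sets, limma called 0.779% higher and 0.876% lower there. None of the 19 probe sets of 11 Stat3 target genes was called, with a median log2 difference of 0.21, against -0.18 over all tested probe sets. The acute-phase regulator Cebpb had 1.58 (limma adjusted p 0.103) and Junb 1.04 (0.109), while Fos had -1.64 at 1d (0.337). Of 18 probe sets of 8 interferon gamma target genes, 1 was higher at 12hr by limma, that of Ccl5 (5.32 ± 1.11 SE, adjusted p 0.0382), and the median was 0.15. Irf1 M34253_g_at had 2320, 2387.3 and 2391.3 at 12hr, against 762.7 to 1540.1 on 5 controls and 2392.3 on Control 1, and a difference of 1.02 ± 0.34 (SE, limma adjusted p 0.109). Of 27 probe sets of 14 interleukin 1 and NF-kB target genes, 2 were higher at 12hr by limma, Ccl5 and the prostaglandin synthase Ptgs2 (2.59 ± 0.62 SE, adjusted p 0.0475), and the median was 0.38. Some genes, such as Icam1 and Ccl5, stand in more than 1 of these lists. No probe set of the 3 lists was called at 1d, 3d or 5d, where 0.292%, 0% and 0% of all were called. The medians of the 3 lists at 3d were -0.27, -0.32 and -0.36, against 0.02 over all.

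Cd40lg and Ifng are best known from T cells, and Il1rn also from microglia and macrophages, so the markers of those cells were read beside them. Of 13 listed T cell markers 1 was matched, Il2ra, at 37.4 to 44.6 at 12hr and 25.1 to 46.7 at 5d, against 17.5 to 75 in Control. Of 9 microglia and macrophage markers 1 was matched, Itgam, at 32.1 to 40.1 at 12hr and 41.3 to 64.6 at 1d, against 37.3 to 65.8 in Control. Their defining markers Cd3e, Cd4, Aif1 and Csf1r were listed but not matched, and the part of these cells in the results was not tested. Of 11 astrocyte markers 8 were matched. Gfap, the defining marker of astrocytes, was among the 11 listed, and its own values are not given here. The summed signals of their 18 probe sets were 54164.9 to 55589.2 at 12hr, 40355.6 to 50386.2 at 1d, 35061.8 to 37857.9 at 3d and 56734.5 to 63106.9 at 5d, against 30669.8 to 53562.7 in Control. All 12hr and 5d arrays lay above all controls in that sum, which adds linear signals and so leans on the bright probe sets. The median log2 difference of the 18 probe sets from Control was 0.14 at 12hr and 0.34 at 5d, against -0.18 and -0.14 over all tested. Among the 18 probe sets 1 of Glul, glutamine synthetase, was higher at 12hr (0.92 ± 0.21 SE, limma adjusted p 0.0439). Another, of Slc1a2, a glutamate transporter, was higher at 1d (1.88 ± 0.31 SE, limma adjusted p 0.0151). Over all tested probe sets limma called 0.779% higher at 12hr and 0.0974% higher at 1d. Of 12 neuron markers 10 were matched, and their 19 probe sets summed to 3784.5 to 3972.1 at 12hr, below every other array, against 4045.9 to 6951.7 in Control. Syn1, a synaptic vesicle protein, was lower at 12hr among them (-0.71 ± 0.17 SE, limma adjusted p 0.0475), where 0.876% of all were. The 7 probe sets of the 2 matched of 8 fibroblast and meningeal markers summed to 4290.3 to 4445 at 12hr and 1055.5 to 1251 at 5d. At 1d these sums were 1508.7 to 8961.8 and at 3d 1455.3 to 10586.5, against 1246.9 to 9775.5 in Control, so they spread widely within those 3 groups. The 13 probe sets of 6 of 10 oligodendrocyte markers summed to 2376 to 2510.4 at 12hr, within the 1556.4 to 2583.5 of Control, and none of the 6 endothelial markers was matched. The part of these sums in the results was not tested.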

How the data were processed

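Total RNA of 18 samples was hybridised to 1 array each. The deposited intensity values, 1 per probe set and array, are linear signals from the authors' value table; how they were computed and scaled is not given in the sources used here, and no detection calls were used. Gene symbols came from the platform annotation (1137 of the 1263 probe sets that are not array controls had 1 symbol, 8 had several and 118 none) and were matched by gene identifier to RefSeq, GRCr8. The 59 array controls were left out. Signals were kept on their deposited scale, raised to a floor of 11.3 (their 10th percentile) and put on the log2 scale. The 1027 probe sets with a signal above 44.9 (the 30th percentile) on at least 3 arrays were fitted with limma 3.58.1 in R 4.3.3, with 5 groups and 13 residual degrees of freedom (median residual SD 0.490). Calls are at a Benjamini-Hochberg adjusted p under 0.05 over all 1027. Precision is limited by how few arrays there are.

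The 6 genes, the gene lists and the tests were chosen with earlier results of these data known. Probe sets named for likeness were the 3 with the highest and the 1 with the lowest Pearson's r to the brightest probe set of each gene. Genes of the other lists were named where called against Control, or else among those with the smallest p in a direction, together with set pathway genes such as Jak1, Socs3, Irf1, Il1b and Il4. Replicate numbers were checked for pairing by correlating deviations from group means between same-numbered arrays. In 1 comparison, 3d and 1d, all 3 correlations exceeded 0.1 (0.390, 0.429 and 0.683), array 3 being the only one of either group in cluster 1. Against Control all 3 were negative for 1d (-0.303, -0.541 and -0.247) and for 3d (-0.505, -0.600 and -0.417). Alternatives changed the floor, filter, scaling, limma settings, samples, replicate block and cluster block. No 2 arrays shared more than 0.713% of their values, so each was counted as 1 sample.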

Additional observations from a re-analysis of the deposited data

Results flagged for a closer look

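In 2 of the 11 probe sets checked in the 6 Control arrays, 1 array stood apart from the others. For Il1rn it was Control 2, whose signal of 118.3 lay apart from the other 5 (19.6 to 38) by 0.632 of the whole range on the log2 scale. For Il4r it was Control 1, whose signal of 601.7 lay apart from the other 5 (398.7 to 460.5) by 0.650 of the range on the log2 scale. Dixon's 95% critical value for 6 samples is 0.625, and chance flags about 1 in 20 groups. Without Control 2 the 1d minus Control difference of Il1rn was 1.99 (limma adjusted p 0.0436, for a probe set that the 1d arrays let into the fit), and without Control 1 the 12hr minus Control difference of Il4r was 0.69 (limma adjusted p 0.0117).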

How the results depend on the processing

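Values are numbers of the 10 probe sets called by limma. For 12hr against Control (2 with all arrays and the main settings) the count was 1 with the filter at the median signal, quantile normalization or cyclic loess, and 0 with only the 2 groups compared, the replicate block, 2 or 5 clusters as a block, or within cluster 1. Without Controls 1 and 2 it was 6, and with no filter or median centring it was 3, where Il4r also passed. For 1d against Control (0) it was 1 without Controls 1 and 2 or with 2 clusters as a block and 2 within cluster 2; for 5d against Control (0) it was 1 with the replicate block (Ifng, -1.32, limma adjusted p 0.0435); and for the mean of the 4 times (0) it was 1 without Controls 1 and 2. For 1d against 12hr (0) it was 2 without Controls 1 and 2 and 1 with 2 clusters, and for 3d against 1d (0) it was 1 within cluster 2. For 5d against 12hr (4) it was 2 with the replicate block, 0 with 2 or 5 clusters, 6 with only the 2 groups or without Controls 1 and 2, and 3 with log2 of signal plus 16, no filter, the filter at the median, each other scaling or the eBayes trend with or without the robust setting. The alternatives for 3d against 12hr and 5d against 1d were chosen after seeing the data. For 3d against 12hr (1) the count was 0 with the filter at the median, quantile normalization, the replicate block, 5 clusters or within cluster 1, and 3 without Controls 1 and 2. For 5d against 1d (0) it was 1 with only the 2 groups, the replicate block, 2 clusters or without Controls 1 and 2, and 2 within cluster 2. Il1rn was among those called in every setting above with a count over 0 that compares 1d with another group. Since the 1d arrays let Il1rn into the fit, those calls are descriptions only. In the F-test (1) it was 0 with the floor at the 5th percentile, log2 of signal plus 16, no filter, the filter at the median, quantile normalization, median centring, cyclic loess, the eBayes trend with or without the robust setting, the replicate block or 5 clusters, and 7 without Controls 1 and 2, where 219 of all 1027 passed, against 17 in the fit of all arrays. Leaving out 1 array at a time gave 0 to 4 for 12hr against Control, 0 to 1 for 1d against Control, 1d against 12hr and 5d against 1d, 0 to 3 for 3d against 12hr, 0 to 6 for 5d against 12hr and 0 to 4 for the F-test. For 12hr against Control it was 4 without Control 1, 2 without Control 2, 1d array 3 or 3d array 3, 1 without 3d array 1 or 5d array 1, and 0 without any of the other 12 arrays. For 5d against 12hr it was 0 without any 12hr array, 5d array 2 or 5d array 3, 1 without 5d array 1, 2 without 1d array 1 or 2, and 6 without 3d array 3. For 3d against 12hr it was 0 without any 12hr array or 3d array 1 or 2, 2 without Control 1 and 3 without 3d array 3. For the F-test it was 4 without Control 1 (114 of all passed), 2 without Control 2, 1 without 1d array 3 or 3d array 3 and 0 without any of the other 14. The labels do not say that replicate numbers pair samples in any comparison, and for 3d against 1d the replicate block changed no call. Over all 1027 probe sets 12hr against Control had 17 calls, with 8 under quantile normalization, 5 under cyclic loess, 27 of an unfiltered table, 1 with only the 2 groups, 3 with the replicate block, 321 without Controls 1 and 2, and 3 and 0 with the cluster blocks. For 5d against 12hr there were 169, with 98 unfiltered, 92 under quantile normalization, 392 with only the 2 groups, and 0 with either cluster block. Both cluster blocks put the 12hr and the 5d arrays in different clusters. For 1d against Control there were 3, with 59 without Controls 1 and 2 and 123 within cluster 2, and for 5d against Control 0, with 61 under the replicate block. The median 12hr minus Control difference of all probe sets was -0.18 as deposited and -0.01, 0.02 and -0.04 after quantile normalization, median centring and cyclic loess, where Cd40lg had -0.90 (limma adjusted p 0.0943) and -0.92 (0.0653) under the first and the last. The cause of these shifts was not tested. No called difference changed sign. With no detection calls, signals near the floor, those of Il1rn, Ifng and, at 12hr, Cd40lg, have no known distance from background.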
